A study of Homo sapiens with 18 samples.

Results

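Open chromatin at 9 genes of antigen presentation was compared over 6 established human cell lines, which form 3 pairs of a platinum-sensitive line and its resistant counterpart. The genes were HLA-B, HLA-C, HLA-E, B2M, TAP1, TAP2, NLRC5, CIITA and CD74. Their members among the windows of the deposited table were all windows that overlapped the annotated span of a gene (GENCODE release 44 on GRCh37, the same build as hg19) extended by 5000 bases on each side, which gave 35 of the 89428 windows. Windows were 1001 bases long and followed each other every 900 bases, and 1 window was shared by TAP1 and TAP2. A window that overlapped the stretch from 1000 bases before to 100 bases after a transcript start of its gene was called a promoter window (14 windows), and the other 21 were called distal. The 1 window that held the canonical start of a gene with its centre nearest to that start is called the start window, and all 9 genes had theirs in the table.

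Accessibility was measured by ATAC-seq, in which the transposase Tn5 cuts open DNA and adds sequencing adapters to it, in 3 libraries per line and 18 in all. A2780, labelled as an endometrial or ovarian cancer line, was paired with CP70, its platinum-resistant derivative made in vitro. PEA1 and PEA2 came from 1 patient before platinum treatment and after resistant relapse, and PEO1 and PEO4 from another patient before and after resistance developed in the clinic, so a patient-derived pair is 1 tumour sampled at different times. No group carried a genetic modification or a drug treatment in the labels, and all lines were grown in the same medium with serum. Nothing in the labels ties the replicate libraries to separate cultures, so p-values measure the spread between libraries, which may be technical.

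Class I molecules (HLA-B, HLA-C and HLA-E among them) carry peptides from inside the cell to its surface, where cytotoxic T cells and natural killer cells read them. They need beta-2-microglobulin, the product of B2M, and peptides that the transporter made of TAP1 and TAP2 moves into the endoplasmic reticulum. NLRC5 is a transactivator of class I genes and CIITA of class II genes. Both act on promoters through a protein complex that binds a compact upstream module, with RFX factors, CREB or ATF factors and NF-Y, which binds the CCAAT box. CD74, the invariant chain, escorts class II molecules on their way to the endosome and is most at home in professional antigen-presenting cells.

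The 200 bases before the canonical starts are shown for 5 of the genes, because HLA-B, HLA-C, HLA-E and B2M held both TGACG and CCAAT there, while CD74 held CCAAT without TGACG. They were read from the GRCh37 reference, 5′ to 3′ on the strand of the gene, and capitals mark the motifs found on either strand. The NF-Y motif was CCAAT, which reads ATTGG on the other strand. The CREB or ATF motif was TGACG, which reads CGTCA there. The only pattern searched as an interferon element was GAANNGAAA, which reads TTTCNNTTC there. Stretches with more bases between GAA and GAAA were not searched and are not marked. The NF-kB motif was GGGGANTCCC, which reads GGGANTCCCC there. They are reference sequences and not those of the lines. The coordinates are chr6:31324957-31325156 (minus strand) for HLA-B, chr6:31239870-31240069 (minus strand) for HLA-C, chr6:30457086-30457285 (plus strand) for HLA-E, chr15:45003515-45003714 (plus strand) for B2M and chr5:149792474-149792673 (minus strand) for CD74.
HLA-B: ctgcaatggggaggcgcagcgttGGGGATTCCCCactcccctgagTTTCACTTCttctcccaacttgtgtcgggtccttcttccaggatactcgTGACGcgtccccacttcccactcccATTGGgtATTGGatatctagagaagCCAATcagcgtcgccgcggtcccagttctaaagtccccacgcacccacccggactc
HLA-C: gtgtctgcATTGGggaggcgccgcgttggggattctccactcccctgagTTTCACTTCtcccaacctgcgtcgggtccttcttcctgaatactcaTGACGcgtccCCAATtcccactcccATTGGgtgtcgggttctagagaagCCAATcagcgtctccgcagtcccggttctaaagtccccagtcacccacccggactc
HLA-E: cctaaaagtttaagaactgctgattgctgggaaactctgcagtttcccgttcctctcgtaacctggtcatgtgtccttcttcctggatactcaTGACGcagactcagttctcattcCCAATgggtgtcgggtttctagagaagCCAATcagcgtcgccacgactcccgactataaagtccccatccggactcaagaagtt
B2M: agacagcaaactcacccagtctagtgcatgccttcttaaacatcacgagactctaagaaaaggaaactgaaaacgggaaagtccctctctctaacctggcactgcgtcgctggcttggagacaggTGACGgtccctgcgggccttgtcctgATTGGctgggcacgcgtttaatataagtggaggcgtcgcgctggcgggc
CD74: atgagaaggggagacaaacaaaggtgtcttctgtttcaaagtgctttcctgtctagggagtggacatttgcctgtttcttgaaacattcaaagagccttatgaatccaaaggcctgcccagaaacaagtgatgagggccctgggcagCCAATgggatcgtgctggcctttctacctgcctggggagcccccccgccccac

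In HLA-B, HLA-C and HLA-E the TGACG stretch began at -106, -105 and -107 from the start, and the CCAAT box nearest to the start at -56, -56 and -57. The B2M promoter held the same letters closer to its start, at -75 and -49. The search covered 250 bases before to 50 bases after the start, counted over both strands, and CCAAT was found in 36.0% and TGACG in 29.3% of the 19856 protein-coding promoters searched in the same way. GAANNGAAA, found in 6.74% of all promoters, was present in HLA-B, HLA-C and TAP2, among others. GGGGANTCCC, found in 0.489%, was present in HLA-B alone among the 9 genes, where the palindromic stretch overlaps itself on the 2 strands and is 1 site. TTCNNNGAA, a STAT site found in 6.50% of promoters, was in none of the 9 windows searched. NLRC5 held none of the patterns searched. Stretches with 1 more base between GAA and GAAA, which were not searched, can be read in B2M, TAP1 and NLRC5, among others. The search therefore does not show that these genes lack an interferon element. A match is a description of the letters and not evidence of binding.

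Depth set the precision of each value. Library totals recovered from the deposited values ranged from 8963079 reads (a PEO1 library) to 60435027 reads (an A2780 library), and a member window held between 3 and 285 reads in a library. Values are given in FPKM, which is reads scaled to the length of the window and to the reads of the library. The share of reads that fell in windows of the table was 39.9% ± 0.949 (SD, n = 3) in PEO1 and 34.4% ± 1.51 in PEO4, but 18.9% ± 1.82 in PEA2, 15.3% ± 2.12 in PEA1, 13.1% ± 2.16 in CP70 and 9.26% ± 0.832 in A2780. The median of the 12699 start windows of protein-coding genes in a library averaged 7.30 FPKM in PEO1 and 7.20 in PEO4, while A2780 had 2.04, CP70 3.14, PEA1 3.18 and PEA2 2.61, and levels are therefore also given as a ratio to that median. In bulk libraries a smaller share of cells with an open window and a less open window in every cell cannot be told apart.

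**Figure D1:**
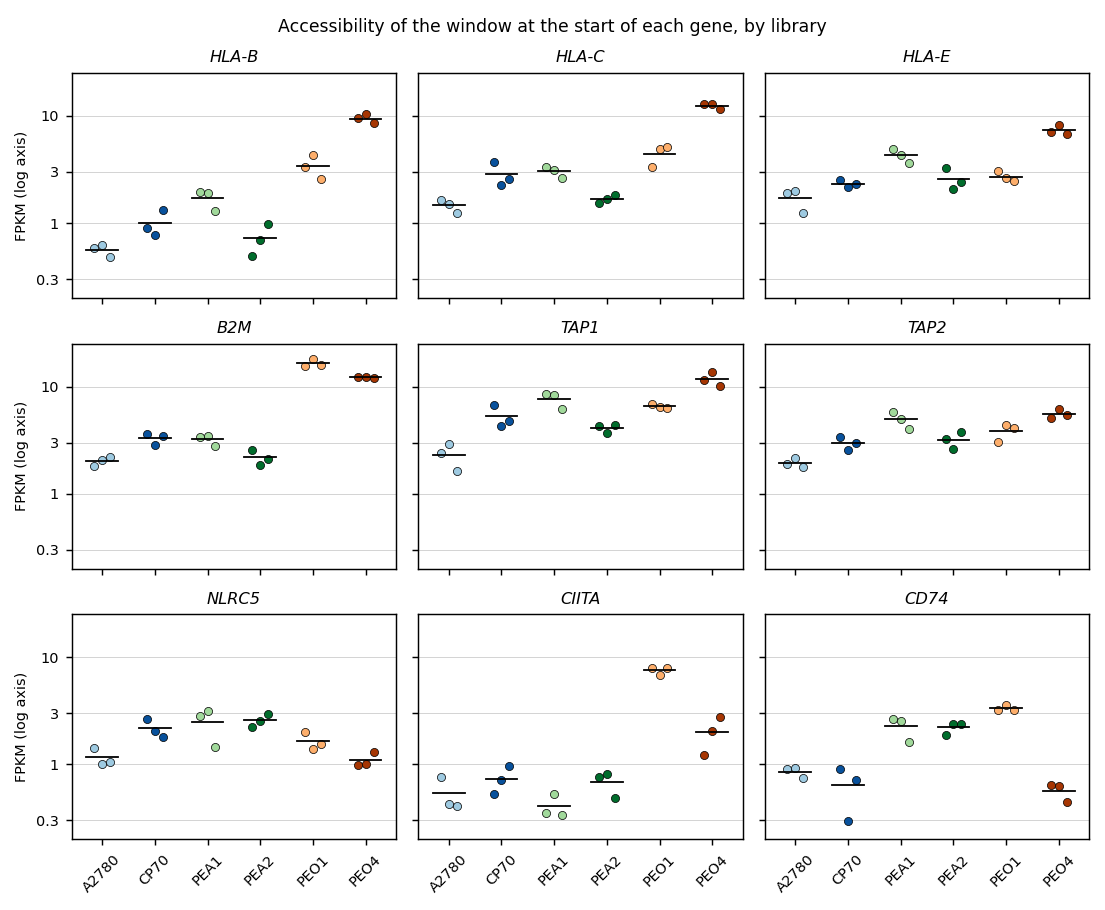
Accessibility of the start window of each of the 9 genes in FPKM on a log axis, with 1 point per library (3 for each of 6 lines) and a bar at the mean of the line. The HLA-B, HLA-C and HLA-E points of PEO4 lie above all other libraries, the CIITA points of PEO1 lie between 6.81 and 7.99 FPKM while those of the 4 lines outside the PEO pair reach at most 0.963, and the CD74 points of PEO4 lie below those of PEO1.

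Across the lines, the class I genes and TAP1 and TAP2 were most accessible in PEO4, B2M, CIITA and CD74 in PEO1, and NLRC5 in PEA2 by their mean FPKM. Over all 15 line pairs, 345 of 510 tests of the 34 member windows passed an adjusted p of 0.05 (limma with Benjamini-Hochberg adjustment over windows and line pairs), which is 67.6% against 70.4% of the tests of all windows. The members thus differed between lines about as often as windows in general. At the start windows, HLA-B and HLA-C differed in 13 line pairs each, B2M in 13, TAP1 in 12, HLA-E and CIITA in 11 each, TAP2 and CD74 in 10 each and NLRC5 in 8 of 15.

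Of the molecules that present peptide, HLA-B showed the widest range among the class I genes. Its start window (chr6:31324500-31325500, holding exons 1 and 2 and the flank) had 0.593, 0.631 and 0.479 FPKM in the 3 libraries of A2780, 0.909, 0.778 and 1.34 in CP70, 1.95, 1.90 and 1.29 in PEA1 and 0.495, 0.694 and 0.976 in PEA2. PEO1 had 3.34, 4.28 and 2.56 FPKM and PEO4 had 9.48, 10.4 and 8.52. All libraries of the PEO lines stood above all others, and PEO4 stood above PEO1 without overlap, while the neighbouring pairs in the order PEA1, CP70, PEA2 and A2780 overlapped. Divided by the median start window of the same library, HLA-B reached 1.31 ± 0.0507 in PEO4 and between 0.277 and 0.537 in the other 5 lines.

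HLA-C repeated this order in FPKM. Its start window (chr6:31239000-31240000, exons 1 to 3 and the flank) held 1.66, 1.51 and 1.26 FPKM in A2780, 3.71, 2.27 and 2.60 in CP70, 3.33, 3.15 and 2.64 in PEA1, 1.54, 1.68 and 1.82 in PEA2, 3.34, 4.89 and 5.13 in PEO1 and 12.8, 12.9 and 11.5 in PEO4. PEO4 again had the highest libraries with a wide gap, and PEO1 was second in FPKM but lowest when divided by the median start window (0.611 ± 0.139), where it overlapped with PEA2. HLA-E, the molecule that natural killer cells read through an inhibitory receptor, had 1.92, 1.98 and 1.24 FPKM in A2780, 2.50, 2.15 and 2.30 in CP70, 4.97, 4.36 and 3.64 in PEA1, 3.30, 2.08 and 2.44 in PEA2, 3.04, 2.62 and 2.45 in PEO1 and 7.15, 8.21 and 6.82 in PEO4 at its start window (chr6:30456900-30457900, exons 1 and 2). On the ratio scale HLA-E was highest in PEA1 (1.36 ± 0.111) and lowest in PEO1 (0.370 ± 0.0403).

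The class I genes are nearly identical in parts and differ between people, and only reads that aligned uniquely to the reference were counted. How far the alleles of each line lowered or moved these values was not tested, so levels are compared between lines with that limit.

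B2M, on another chromosome, had a different order. The start window (chr15:45003600-45004600, exon 1 and the flank) held 1.83, 2.07 and 2.18 FPKM in A2780, 3.64, 2.87 and 3.48 in CP70, 3.40, 3.46 and 2.78 in PEA1, 2.58, 1.85 and 2.13 in PEA2, 15.6, 17.9 and 15.9 in PEO1 and 12.27, 12.29 and 11.96 in PEO4. The PEO libraries lay far above the rest, and PEO1 above PEO4 without overlap. The ratio to the median start window was 2.26 ± 0.109 in PEO1, 1.69 ± 0.0778 in PEO4 and between 0.834 and 1.08 in the other lines. The window before it (chr15:45002700-45003700) is counted as a B2M promoter window but also holds the start of PATL2, which runs the other way, and the reads of the 2 genes cannot be told apart there.

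Line means of the transporter genes spanned 5.11-fold for TAP1 and 2.88-fold for TAP2 in FPKM, and 2.69-fold and 2.95-fold on the ratio scale. TAP1 shares its start window (chr6:32821200-32822200) with the start of PSMB9, a subunit of the immunoproteasome, so the value belongs to both. It held 2.39, 2.91 and 1.62 FPKM in A2780, 6.67, 4.31 and 4.82 in CP70, 8.49, 8.32 and 6.14 in PEA1, 4.29, 3.70 and 4.39 in PEA2, 6.88, 6.46 and 6.24 in PEO1 and 11.5, 13.6 and 10.2 in PEO4. PEO4 was highest and A2780 lowest, whereas PEA1, PEO1, CP70 and PEA2 overlapped with their neighbours in the order.

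TAP2 had 1.88, 2.14 and 1.79 FPKM in A2780, 3.41, 2.57 and 2.97 in CP70, 5.83, 5.02 and 3.98 in PEA1, 3.24, 2.60 and 3.77 in PEA2, 3.04, 4.36 and 4.12 in PEO1 and 5.12, 6.14 and 5.48 in PEO4 at its start window (chr6:32805900-32806900, exons 1 and 2). Only A2780 stood apart from its neighbour in that order. On the ratio scale both transporter genes were highest in PEA1 (2.40 ± 0.0636 for TAP1 and 1.55 ± 0.139 for TAP2) and lowest in PEO1 (0.895 ± 0.0472 and 0.526 ± 0.0951).

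**Figure D2:**
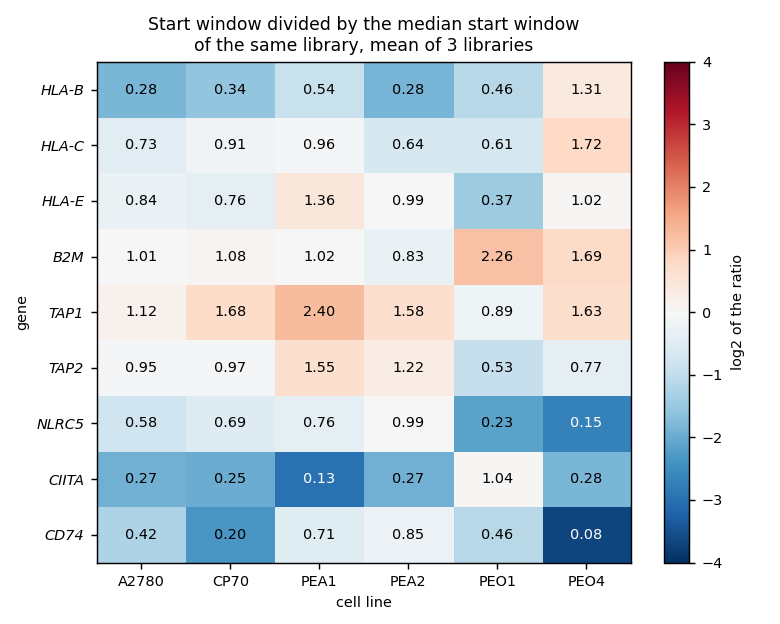
Start window of each gene (rows) in each line (columns) divided by the median start window of the same library, printed as the mean of 3 libraries and coloured by its log2. HLA-B in PEO4 (1.31), B2M in PEO1 (2.26) and TAP1 in PEA1 (2.40) are the highest values of their rows, and CD74 in PEO4 (0.0789) is the lowest of all.

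NLRC5, the class I transactivator, was the gene with the narrowest range of line means in FPKM, 2.36-fold between the highest and the lowest. The start window (chr16:57023100-57024100, exon 1 and the flank) held 1.41, 1.01 and 1.06 FPKM in A2780, 2.65, 2.04 and 1.80 in CP70, 2.85, 3.15 and 1.44 in PEA1, 2.25, 2.54 and 2.97 in PEA2, 2.02, 1.40 and 1.56 in PEO1 and 0.988, 1.01 and 1.30 in PEO4. Every pair of neighbours in the order of the lines overlapped. Divided by the median start window, the gene was at 0.228 ± 0.0472 in PEO1 and 0.153 ± 0.0328 in PEO4 against 0.577 to 0.995 in the other lines.

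CIITA, the class II transactivator, was open in PEO1 most of all. At the start window (chr16:10971000-10972000, exon 1 and the flank) the libraries had 0.767, 0.428 and 0.413 FPKM in A2780, 0.530, 0.718 and 0.963 in CP70, 0.352, 0.530 and 0.336 in PEA1, 0.769, 0.809 and 0.488 in PEA2, 7.99, 6.81 and 7.91 in PEO1 and 1.22, 2.06 and 2.79 in PEO4. PEO1 lay above PEO4 and PEO4 above the other 4 lines, which overlapped. On the ratio scale PEO1 still stood apart (1.04 ± 0.125), whereas PEO4 (0.284 ± 0.122) overlapped with A2780 (0.266 ± 0.101). CD74, the class II chaperone, had 0.907, 0.924 and 0.744 FPKM in A2780, 0.909, 0.299 and 0.712 in CP70, 2.63, 2.55 and 1.63 in PEA1, 1.87, 2.37 and 2.40 in PEA2, 3.24, 3.58 and 3.23 in PEO1 and 0.639, 0.624 and 0.448 in PEO4 at its start window (chr5:149792400-149793400). PEO1 and both PEA lines were high and A2780, CP70 and PEO4 low, and CP70 overlapped with both other low lines. Divided by the median start window, CD74 was highest in PEA2 (0.852 ± 0.154) and PEA1 (0.707 ± 0.0702), PEO1 (0.459 ± 0.0135) overlapped with A2780 (0.422 ± 0.0237), and PEO4 stayed lowest (0.0789 ± 0.0115).

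Promoter and distal windows were also averaged apart for each gene. The promoter average of CIITA was 6.69 ± 0.722 FPKM in PEO1 and 1.91 ± 0.489 in PEO4, whereas the average of its 7 distal windows was 4.93 ± 0.203 and 4.36 ± 0.331. That average joined different parts. The 3 distal windows nearest to the start averaged 3.46 ± 0.351 in PEO1 and 1.53 ± 0.425 in PEO4. The 4 around the end of the gene averaged 6.03 ± 0.358 and 6.49 ± 0.476. A window had to exceed 2 FPKM in 2 libraries to be in the table. A CIITA promoter window (chr16:10970100-10971100) and a distal one near the start (chr16:10972800-10973800) passed only through PEO1, so they had to be higher there. For CD74 the promoter average was 3.81 ± 0.234 in PEO1 and 0.566 ± 0.0519 in PEO4, and the distal average was 2.50 ± 0.353 and 2.51 ± 0.250. In the PEA lines the NLRC5 promoter average was 2.48 ± 0.913 in PEA1 and 2.59 ± 0.362 in PEA2, and its distal average 0.638 ± 0.195 and 2.07 ± 0.195. Of its 4 distal windows 3 were in the table only through PEA2. The higher distal average there is therefore a description only. For HLA-B, HLA-C, HLA-E, TAP1 and TAP2 the averages of both kinds of window were higher in PEO4 than in PEO1 and lower in PEA2 than in PEA1. The distal windows of the HLA genes lay over exons, centred 856 to 1269 bases after the start. The distal window shared by TAP1 and TAP2 held the start of PSMB8.

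The resistant line of every pair was set against the sensitive one, which asks whether accessibility at these genes changed with resistance. Within a pair, windows whose 6 libraries averaged more than 1 FPKM were tested with limma on log2(FPKM + 0.1), a scale that understates the change of low windows. Fold changes are resistant minus sensitive on that log2 scale, and changes in the direction of calls are read against those of all windows tested. At the study's thresholds (a log2 fold change over 2 in size and a Benjamini-Hochberg adjusted p under 0.001) 0 of 18 member windows tested were called in the A2780 pair, 1 of 27 in the PEA pair and 3 of 32 in the PEO pair. The 1 window called in the PEA pair, upstream of NLRC5, was in the table only through PEA2. The thresholds called 0.797%, 12.7% and 8.49% of all windows in these pairs. In the A2780 and PEA pairs the members were not called more often than windows in general. The 3 of 32 in the PEO pair were close to the share of all windows, and ranged from 2 to 4 with 1 library left out.

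In the PEO pair the members split by gene. At an adjusted p under 0.05, 13 of 32 windows were higher and 11 lower in PEO4, against 21.9% higher and 45.8% lower among all windows, and 26.4% higher and 31.0% lower among the 12378 start windows tested. The 13 higher windows belonged to HLA-B, HLA-C, HLA-E, TAP1 and TAP2, and the 11 lower ones to B2M, NLRC5, CIITA and CD74. Of these, 2 of the higher windows were in the table only through PEO4 (fewer than 2 of the other libraries exceeded 2 FPKM) and 4 of the lower ones only through PEO1, so they had to differ. Without them 11 were higher and 7 lower. With each library centred on its median, 18 were higher and 7 lower. Libraries of the 2 lines did not overlap in 24 of the 32 windows (75.0%, against 69.3% of all windows).

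HLA-B was 2.79-fold, HLA-C 2.78-fold and HLA-E 2.74-fold higher in PEO4 at the start window. On the log2 scale these were 1.48 (SE 0.156, limma adjusted p = 1.86e-10), 1.48 (SE 0.141, adjusted p = 1.73e-11) and 1.42 (SE 0.155, adjusted p = 4.11e-10). TAP1 rose by less, 0.83 on the log2 scale (SE 0.126, limma adjusted p = 3.87e-07), and TAP2 by 0.54 (SE 0.159, limma adjusted p = 0.00308).

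All 5 genes lie on the short arm of chromosome 6, and windows around them shifted too. Among the 266 other windows tested from 30 to 35 Mb of chromosome 6, the median log2 fold change was 1.25, and that of the 87 start windows among them 1.26, while the median over all windows was -0.30. The 5 Mb stretches on either side had medians of 1.05 (25 to 30 Mb) and 0.97 (35 to 40 Mb), and all 5 Mb stretches up to 65 Mb were positive (0.19 to 1.25), whereas those from 80 Mb on were negative (-1.12 to -0.22). With the median of its 5 Mb stretch subtracted from every window, the change at the start windows was 0.23 for HLA-B (limma adjusted p = 0.169), 0.23 for HLA-C (0.174), 0.17 for HLA-E (0.336), -0.42 for TAP1 (0.00204) and -0.71 for TAP2 (0.000265). The part of copy number in these shifts was not tested.

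B2M moved the other way. Its start window fell by 0.43 on the log2 scale in PEO4 (SE 0.106, limma adjusted p = 0.000512) and the window shared with PATL2 by 0.92 (SE 0.118, adjusted p = 1.75e-08). Here as well the surroundings had shifted. The median was -1.27 over the 174 other windows from 45 to 50 Mb of chromosome 15 and -1.01 over the 20 start windows among them. B2M lies at the lower edge of that stretch. The adjoining one, from 40 to 45 Mb, had medians of -0.67 (245 windows) and -0.57 (70 start windows). Only the stretch from 45 to 50 Mb enters where the 5 Mb median is removed. With the 5 Mb median removed, the B2M start window was 0.83 higher in PEO4 (limma adjusted p = 6.11e-09), and with all libraries centred on their median it was at -0.09 (limma adjusted p = 0.432), so its direction depended on the scaling.

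Among the windows tested, the largest falls in PEO4 were at CD74 and CIITA. An NLRC5 intron window below the mean of 1 FPKM, and so not tested, also went from 0.967 to 0.238 FPKM on average. It held only 9 to 11 reads in the PEO1 libraries and 3 to 6 in those of PEO4. CD74 was 5.87-fold lower in PEO4 at the start window, with log2 fold change -2.37 (SE 0.256, limma adjusted p = 3.30e-10). The promoter window after it (chr5:149791500-149792500, exon 1 and the flank) had 3.95, 4.54 and 4.35 FPKM in PEO1 and 0.465, 0.624 and 0.598 in PEO4, with log2 fold change -2.73 (SE 0.240, limma adjusted p = 2.20e-12). By contrast the 2 intron windows of CD74 whose centres lie 2273 and 3173 bases after the start were at 0.27 (SE 0.255, limma adjusted p = 0.349) and -0.14 (SE 0.174, limma adjusted p = 0.482), and their libraries overlapped. The first of these was called higher in PEO4 with median centring (0.62, limma adjusted p = 0.0327), with the 5 Mb median removed (1.09, limma adjusted p = 0.000554), with the GC trend removed (0.86, limma adjusted p = 0.00422) and by edgeR on recovered reads (0.63, adjusted p = 0.0248). The second was called higher with the 5 Mb median removed (0.68, limma adjusted p = 0.000948).

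CIITA was 3.74-fold lower in PEO4 at the start window, with log2 fold change -1.92 (SE 0.193, limma adjusted p = 6.04e-11). Its other promoter window (chr16:10970100-10971100) was 1.65 lower (SE 0.179). A distal window whose centre lies at -5859 bases from the canonical start (chr16:10964700-10965700), still inside the annotated span of the gene, had 4.15, 4.62 and 4.12 FPKM in PEO1 and 0.639, 1.06 and 1.34 in PEO4. It fell by 2.03 (SE 0.228, limma adjusted p = 7.80e-10). The 2 intron windows with centres 1341 and 2241 bases after the start fell by 0.79 and 0.69 (SE 0.205 and 0.232). The first passed (limma adjusted p = 0.000896), but not with libraries centred on their median (limma adjusted p = 0.0521). The second intron window and the other promoter window were in the table only through PEO1. Both had to be lower in PEO4 and are given as a description without a test. The 4 windows around the end of the gene, 2 of which hold the starts of DEXI and CLEC16A, had log2 fold changes from -0.12 to 0.21 in the PEO pair, and none passed the threshold. With the libraries centred on their median they were at 0.22 to 0.55, and 3 of the 4 passed.

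These falls were larger than those of the surroundings. CD74 lies close to the upper edge of its stretch, 145 to 150 Mb of chromosome 5. Over the other start windows in the same 5 Mb stretch the median was -0.39 for CD74 and 0.13 for CIITA. Over all other windows there it was -0.81 for CD74 and -0.06 for CIITA. With that median removed the log2 fold changes were -1.55 at the CD74 start window, -1.91 at its second promoter window, -1.84 at the CIITA start window and -1.95 at the upstream CIITA window, with limma adjusted p-values of at most 4.74e-06. None of the 3 windows that had met the study's thresholds, the 2 promoter windows of CD74 and the upstream one of CIITA, then exceeded 2 in size. NLRC5 did not pass in the PEO pair at its start (log2 fold change -0.55, SE 0.266, limma adjusted p = 0.0661).

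**Figure D3:**
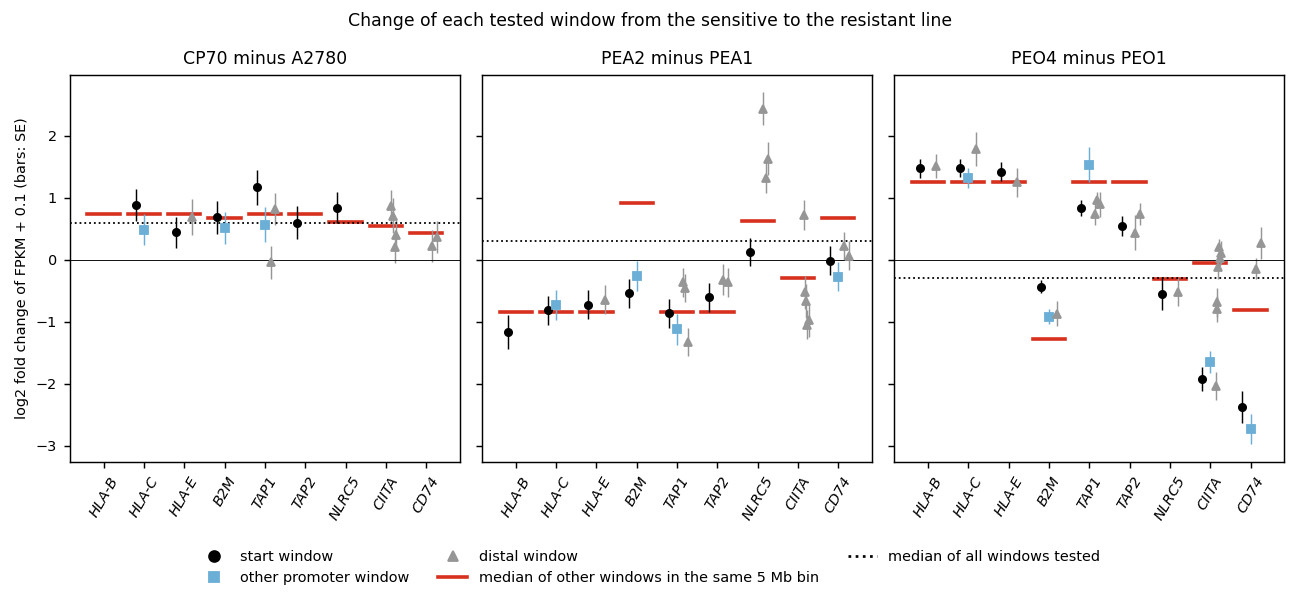
Log2 fold change of FPKM + 0.1 from the sensitive to the resistant line for each tested window of each gene (circles for start windows, squares for other promoter windows, triangles for distal windows, bars for the standard error), 1 panel per pair. Red bars mark the median of the other windows in the same 5 Mb stretch and the dotted line the median of all windows tested. In the PEO pair HLA-B, HLA-C and HLA-E lie near the red bar at 1.25, whereas the circles and squares of CIITA and CD74 lie below theirs and the CD74 triangles above, and in the PEA pair the 3 NLRC5 triangles lie above the red bar.

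In the PEA pair the class I and transporter genes were lower in the resistant line. Of 27 member windows tested, 4 were higher and 13 lower in PEA2 at an adjusted p under 0.05, against 43.0% higher and 21.4% lower among all windows and 17.6% higher and 35.8% lower among the 12223 start windows tested. Libraries did not overlap in 19 of the 27 (70.4%, against 66.3% of all windows). All 4 higher windows were distal, 3 at NLRC5 and 1 at CIITA. The 3 at NLRC5 were in the table only through PEA2, the line where they were higher, which leaves 1 higher window that was not, while none of the 13 lower ones was there only through PEA1. With each library centred on its median 3 were higher and 19 lower, and with the median of start windows as the centre 5 were higher and 10 lower.

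HLA-B fell by 1.17 on the log2 scale at its start window in PEA2 (SE 0.273, limma adjusted p = 5.20e-05), HLA-C by 0.82 (SE 0.233, adjusted p = 0.00101) and HLA-E by 0.72 (SE 0.228, adjusted p = 0.00301). TAP1 fell by 0.86 (SE 0.230, limma adjusted p = 0.000395), TAP2 by 0.61 (SE 0.227, adjusted p = 0.0132) and B2M by 0.54 (SE 0.230, adjusted p = 0.0310). The last call was lost without replicate 1 or 2 of PEA1 or replicate 2 or 3 of PEA2 (limma adjusted p from 0.0983 to 0.135). A window in exon 1 of TAP1 with its centre 681 bases after the start (chr6:32820300-32821300) fell by 1.32 (SE 0.230, limma adjusted p = 3.62e-08), from 4.45, 4.70 and 3.64 FPKM in PEA1 to 1.65, 1.39 and 1.91 in PEA2.

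The stretch of chromosome 6 from 30 to 35 Mb had shifted down in this pair, with a median of -0.84 over 278 other windows and of -0.93 over the 89 start windows among them, against 0.31 over all windows and -0.24 over all start windows. With the 5 Mb median removed, the start windows were at -0.35 for HLA-B (limma adjusted p = 0.217), -0.00463 for HLA-C (0.982), 0.09 for HLA-E (0.648), -0.05 for TAP1 (0.731) and 0.20 for TAP2 (0.221). The TAP1 exon window kept a change of -0.51 (limma adjusted p = 0.00600). B2M went the other way from the windows at 45 to 50 Mb of chromosome 15. Their median was 0.91 over 105 windows and 0.29 over the 19 start windows among them. B2M lies at the lower edge of that stretch. The adjoining one, from 40 to 45 Mb, had medians of -0.53 (163 windows) and -0.60 (66 start windows), the same direction as B2M.

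NLRC5 was high in PEA2 at 3 windows away from its start. These 3 windows exceeded 2 FPKM in PEA2 libraries alone, and a window had to do so in 2 libraries to be in the table, so they had to be higher in PEA2 and are given as a description without a test. A window with its centre at -4369 bases from the start, outside the annotated span (chr16:57018600-57019600), had 0.513, 0.717 and 0.240 FPKM in PEA1 and 3.35, 2.66 and 2.75 in PEA2. This was 5.97-fold higher in PEA2, with log2 fold change 2.44 (SE 0.265). The next window towards the gene (chr16:57019500-57020500) was 1.33 higher on the log2 scale (SE 0.253) and an intron window 10931 bases after the start (chr16:57033900-57034900) 1.63 higher (SE 0.267).

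At the NLRC5 start window itself the change was 0.12 (SE 0.231, limma adjusted p = 0.650), and the libraries of PEA1 and PEA2 overlapped. With the 5 Mb median removed that window was at -0.53 (limma adjusted p = 0.0133). The 38 other start windows in the same 5 Mb stretch had a median of 0.19, near the change at the NLRC5 start window. All other windows there had a median of 0.62, and with that removed the 3 distal windows were at 1.78, 0.67 and 0.97. The upstream window then missed the study's threshold of 2, as it did with the trend on GC content removed (1.96). In CIITA the window at -5859 bases was also higher in PEA2, by 0.72 (SE 0.247, limma adjusted p = 0.00633), with libraries at 1.25, 1.21 and 1.05 FPKM in PEA1 and 2.14, 1.68 and 2.22 in PEA2. The CIITA call was lost with all libraries centred on their median (0.35, limma adjusted p = 0.118).

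CD74 showed no change past the threshold in the PEA pair, at -0.02 (SE 0.234, limma adjusted p = 0.959) at its start window. With the 5 Mb median removed it was at -0.71 (limma adjusted p = 0.00157). The median of that stretch was 0.68 over 245 other windows, but only 0.11 over the 27 start windows among them. The windows at the starts of DEXI and CLEC16A, counted with CIITA by their position, fell by 1.05 (SE 0.237, limma adjusted p = 2.72e-05) and 0.98 (SE 0.262, adjusted p = 0.000440) in PEA2.

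**Figure D4:**
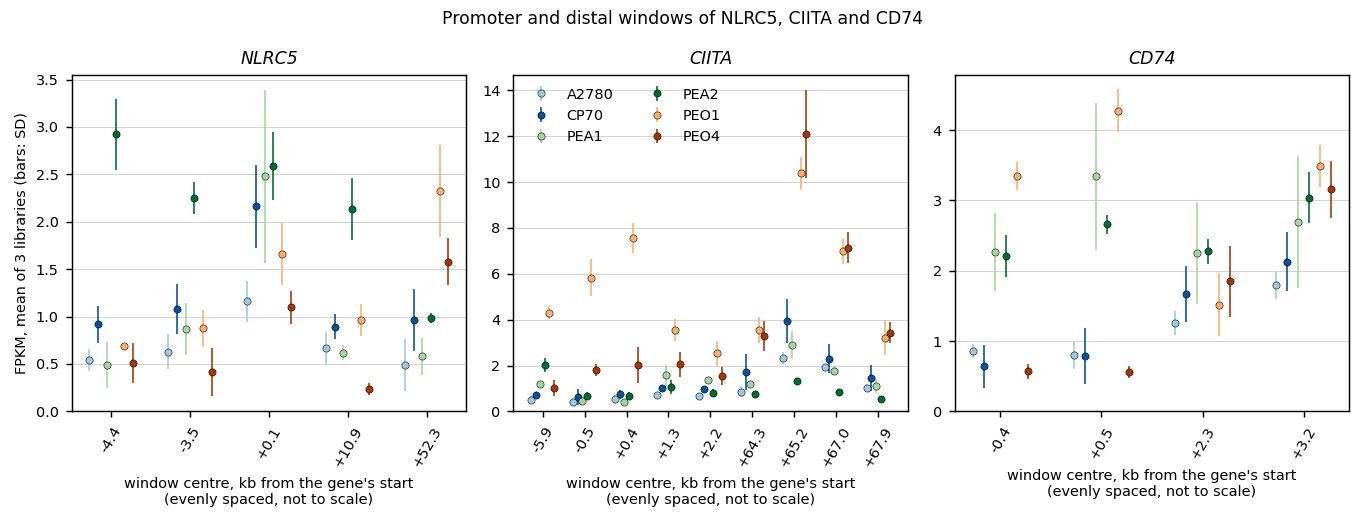
FPKM (mean of 3 libraries, bars for the SD) of all windows of NLRC5, CIITA and CD74 in the 6 lines, by the distance of the window's centre from the gene's start in kb, with windows evenly spaced. PEA2 stands apart from the other lines at 3 NLRC5 windows away from the start, while at the start its mean (2.59) lies next to that of PEA1 (2.48), PEO1 stands above PEO4 at the upstream and start windows of CIITA while both lie close together around its end, and PEO4 is low at the promoter but not at the intron windows of CD74.

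In the A2780 pair the whole table shifted up, so the members are read against that shift. Of 18 windows tested 8 were higher and 0 lower in CP70 at an adjusted p under 0.05, against 47.5% higher and 2.29% lower among all windows and 43.9% higher and 1.49% lower among the 11443 start windows tested. The members' share was 44.4%. The count fell to 3 without replicate 3 of A2780, and to 1 once each library was centred on its median. Libraries did not overlap in 11 of 18 (61.1%, against 59.0% of all windows). The 8 windows were the start windows of HLA-C, B2M, TAP1 and NLRC5 and distal windows of HLA-E, TAP1 and CIITA, the last of which had 2.

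Among the start windows TAP1 had the largest change, 1.17 on the log2 scale (SE 0.286, limma adjusted p = 0.000468). HLA-C followed with 0.89 (SE 0.258, limma adjusted p = 0.00326). NLRC5 came next with 0.84 (SE 0.251, limma adjusted p = 0.00433) and then B2M with 0.68 (SE 0.271, limma adjusted p = 0.0283). The median over all windows was 0.59 and that over start windows 0.58. With each library centred on its median, TAP1 kept a change of 0.59 (limma adjusted p = 0.0175), whereas HLA-C was at 0.31 (0.280), NLRC5 at 0.26 (0.457) and B2M at 0.11 (0.770). HLA-E and TAP2 did not pass at the start, with 0.44 (SE 0.257, limma adjusted p = 0.129) and 0.59 (SE 0.266, limma adjusted p = 0.0512). The start windows of HLA-B, CIITA and CD74 had a mean of 1 FPKM or less and were not tested.

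Whether the change differed between pairs was tested directly over the 12 libraries of 2 pairs. It differed in 18 of 28 member windows between the A2780 and PEA pairs (64.3%, against 55.7% of all windows), in 19 of 32 between the A2780 and PEO pairs (59.4%, against 48.1%) and in 26 of 34 between the PEA and PEO pairs (76.5%, against 68.1%). For HLA-B the change in the PEO pair exceeded that in the PEA pair by 2.64 (SE 0.315, limma adjusted p = 6.94e-10), for HLA-C by 2.29 (SE 0.263, adjusted p = 2.48e-10) and for HLA-E by 2.14 (SE 0.270, adjusted p = 2.53e-09), where the regional medians differ between these pairs too. CD74 and CIITA differed the other way, with -2.36 (SE 0.325, limma adjusted p = 2.15e-08) and -2.56 (SE 0.369, limma adjusted p = 6.05e-08) at the start windows. The CIITA start window averaged 0.406 FPKM in PEA1 and 0.689 in PEA2, too low to be tested within that pair. It entered this fit through the PEO libraries, with 7.57 FPKM in PEO1 and 2.02 in PEO4. 

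The rest of the class I pathway was followed at canonical start windows from a list of 14 genes, of which 12 were in the table. From PEO1 to PEO4, 5 were higher, 3 lower and 4 did not pass, with HLA-F, another class I gene, at 1.42 and TAPBP, which bridges TAP and class I molecules, at 1.02. Among all start windows tested 26.4% were higher and 31.0% lower in this pair. Both genes lie on chromosome 6 as well, where the other windows of their 5 Mb stretches had medians of 1.05 and 1.25. CALR, a folding chaperone, rose by 0.72, while ERAP2, which trims peptides, fell by 0.92 (limma adjusted p = 0.000821). In the PEA pair 3 were higher and 5 lower, with ERAP1 up by 1.34 and ERAP2 by 1.31, and CALR down by 1.05, against 17.6% higher and 35.8% lower among all start windows. The 5 Mb stretch of ERAP1 and ERAP2 had a median of 2.30 in that pair and of 1.47 over its start windows. In the A2780 pair 6 of 10 tested were higher and 0 lower, against 43.9% and 1.49%. Among the 12 were PSMB8 and PSMB9, which share windows with TAP1 and TAP2.

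Of 13 class II pathway genes 4 had a start window in the table, namely HLA-DMA, HLA-DMB, CTSL and IFI30. HLA-DMA, a peptide editor, was higher in both PEA2 (0.87, limma adjusted p = 0.000625) and PEO4 (0.95, limma adjusted p = 0.000241), and HLA-DMB was higher in PEO4 (1.11, limma adjusted p = 0.00116). Between PEO1 and PEO4, 3 of the 4 were higher and 0 lower, against 26.4% and 31.0% of all start windows. Both HLA-DM genes lie in the stretch of chromosome 6 whose other windows had a median of 1.25 in the PEO pair and -0.83 in the PEA pair, so the changes of both in PEO4 were below that shift, and that of HLA-DMA in PEA2 went against it.

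All 16 listed genes were tested, those of factors that act on these promoters and of interferon receptor chains and kinases (IFNGR1, IFNGR2, JAK1 and JAK2). In the A2780 pair 11 were higher and 0 lower, with a median log2 fold change of 0.76 against 0.58 over all start windows, of which 43.9% were higher and 1.49% lower. In the PEA pair 0 were higher and 10 lower, with a median of -0.60 against -0.24 over all start windows (17.6% higher and 35.8% lower). In the PEO pair 6 were higher and 2 lower, with a median of 0.14 against -0.02 (26.4% higher and 31.0% lower). NFYA, a subunit of NF-Y, rose by 1.28 and IRF1, an interferon response factor, by 1.13 in PEO4, whereas JAK1 did not pass. The other windows in the 5 Mb stretch of NFYA on chromosome 6 had a median of 1.14 in this pair, and those in that of IRF1 on chromosome 5 a median of 0.76. IFNGR1, an interferon gamma receptor chain, had a log2 fold change of 1.85 in the A2780 pair (limma adjusted p = 1.28e-08) and -1.03 in the PEA pair (limma adjusted p = 3.17e-05), where the other windows of its 5 Mb stretch of chromosome 6 had medians of 1.74 and -0.77.

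Cell type markers were read in the same way. Of 7 ovarian and epithelial markers 6 had a start window in the table, and their summed FPKM ranged from 57.0 to 63.5 in PEO4 and 53.1 to 57.4 in PEO1, from 12.5 to 13.5 in PEA2 and 10.98 to 12.7 in PEA1, and from 6.97 to 9.34 in CP70 and 4.35 to 5.95 in A2780. The sums joined changes in both directions. In PEO4 WT1, KRT8 and KRT18 were called higher and PAX8 and KRT7 lower, against 26.4% higher and 31.0% lower among all start windows. In PEA2 WT1, EPCAM and KRT7 were called higher and KRT8 and KRT18 lower, against 17.6% and 35.8%. In CP70 KRT8 and KRT18 were called higher and none lower, against 43.9% and 1.49%. The start windows of PAX8 and EPCAM were below the mean of 1 FPKM for testing in the A2780 pair. Of 8 blood cell markers only CD14 and ITGAX had a start window in the table, with none for PTPRC, CD3E, MS4A1, CD79A or LYZ, among others. The summed FPKM of CD14 and ITGAX was 6.68 to 7.47 in PEO1 and 2.91 to 3.34 in PEO4, where CIITA and CD74 fell. It was 2.83 to 3.27 in PEA1 and 5.95 to 7.58 in PEA2, where 3 NLRC5 distal windows were high. Like those 3, the ITGAX window exceeded 2 FPKM in PEA2 libraries alone, so it had to be higher there. Its part of the PEA2 sum is a description only. CD14 had log2 fold changes of 0.71 to PEA2 (limma adjusted p = 0.00369) and -1.12 to PEO4 (limma adjusted p = 2.16e-07). Other windows in its 5 Mb stretch had medians of 0.20 and -0.55. Those in the stretch of ITGAX had 1.25 from PEA1 to PEA2. The part of other cells in these results was not tested.

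The start windows outside chromosome 6 whose 6 line means most resembled the median profile of the 9 genes were those of DMAP1 (Pearson r 0.997 over 6 lines), GARRE1 (0.996) and PLPP2 (0.994) among those of 12935 genes, some of which share a window (12024 distinct windows). Mean levels of DMAP1 were 3.47 FPKM in PEO4 and 2.71 in PEO1, 2.68 in PEA1 and 1.62 in PEA2, and 1.58 in CP70 and 1.20 in A2780. These correlations share the library scaling of each line and are a description only.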

How the data were processed

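Accessibility was measured by ATAC-seq in 18 libraries, 3 for each of 6 lines, and groups were taken from the sample titles. Per the labels and the study's methods, the authors aligned reads to hg19 with Bowtie2, kept unique alignments, removed duplicates with Picard, counted reads in 1 kb windows with featureCounts and deposited FPKM values made with edgeR (versions not given in the sources used here). The deposited FPKM, multiplied by the window length of 1.001 kb, gave RPM, and divided by the value of 1 read every one of them lay within 0.01 of a whole number in every library, so totals and counts could be recovered. Every deposited window exceeded 2 FPKM in at least 2 libraries.

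Windows with a mean over 1 FPKM were tested with limma 3.58.1 in R 4.3.3 on log2(FPKM + 0.1) with a mean-variance trend, over the whole table, with Benjamini-Hochberg adjustment. Each pair was fitted on its 6 libraries, differences between pairs on 12, and the 15 line pairs on all 18. Alternatives were other pseudocounts, no filter, other centrings, removal of the median of 5 Mb stretches or of a GC trend, edgeR 4.0.16 and voom on recovered reads, and each library left out. Genes, starts and sequences came from GENCODE release 44 lifted to GRCh37. The fits were tested on simulated data. An exact permutation test of 3 libraries against 3 cannot go below 0.10 and was not used.

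Members and lists were chosen with earlier results of these data known. Named windows were the start window of each gene, the distal window of each gene with the highest mean over 18 libraries, and windows called at the study's thresholds in any pair. Windows beyond these (further promoter windows of B2M and CIITA, the TAP1 exon 1 window, the NLRC5 windows at -3469 and 10931 bases, a CD74 intron window, the CIITA intron windows and the window at the CLEC16A start) were named after their values were seen. Some listed items and 1 upstream sequence are not reported here.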

Additional observations from a re-analysis of the deposited data

Results flagged for a closer look

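Between pairs, the change from the sensitive to the resistant line differed at these windows by limma's test of the difference (Benjamini-Hochberg adjusted p under 0.05). Values are differences of log2 fold changes, the pair named first minus the pair named second.

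At the HLA-B start window the PEA pair minus the A2780 pair was -1.87, PEO minus A2780 0.77 and PEO minus PEA 2.64. HLA-C gave -1.71 for PEA minus A2780 and 2.29 for PEO minus PEA. HLA-E gave -1.16, 0.98 and 2.14 for the 3 differences in the same order as HLA-B. In the HLA-B window over exons 2 and 3, PEO minus A2780 was 1.00 and PEO minus PEA 2.46. The HLA-C window over exons 3 and 4 gave 2.00 for PEO minus PEA. The HLA-E exon 3 window gave -1.33 for PEA minus A2780 and 1.90 for PEO minus PEA.

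At the B2M start window PEA minus A2780 was -1.22 and PEO minus A2780 -1.12. The B2M intron window gave -1.04 for PEO minus A2780 and -1.21 for PEO minus PEA. The TAP1 start window gave -2.03 for PEA minus A2780 and 1.70 for PEO minus PEA, and TAP2 gave -1.20 and 1.15. In the TAP1 exon 11 window PEO minus A2780 was 1.00 and PEO minus PEA 1.41. The window shared by TAP1 and TAP2 gave 1.10 for PEO minus PEA.

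At the NLRC5 start window PEO minus A2780 was -1.39. Its upstream window gave 1.78 for PEA minus A2780 and -2.87 for PEO minus PEA, and the window over exons 18 and 19 gave -1.46 for PEO minus A2780 and -1.24 for PEO minus PEA. The CIITA start window gave -2.33 for PEO minus A2780 and -2.56 for PEO minus PEA, and its upstream window -2.50 and -2.76. The window at the DEXI start gave -1.76 for PEA minus A2780 and 1.26 for PEO minus PEA. The CD74 start window gave -1.90 for PEO minus A2780 and -2.36 for PEO minus PEA, and the second promoter window -2.63 and -2.46.

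With libraries centred on their start windows, the difference no longer passed for PEA minus A2780 at the start windows of HLA-E (adjusted p = 0.282), B2M (0.180) and TAP2 (0.155) and at the HLA-E exon 3 window (0.283) by limma. The same held for PEO minus A2780 at the NLRC5 start window (limma adjusted p = 0.0810), the B2M intron window (0.392) and the NLRC5 window over exons 18 and 19 (0.212). With each library centred on its median, limma adjusted p-values were over the threshold for PEO minus A2780 at the start windows of B2M (0.149) and NLRC5 (0.0830), the B2M intron window (0.461) and the NLRC5 window over exons 18 and 19 (0.168), and for PEO minus PEA at the last 2 of these windows (0.247 and 0.274). Of the windows above, the HLA-B one over exons 2 and 3, the HLA-C one over exons 3 and 4, the B2M intron window, the upstream NLRC5 window and the NLRC5 one over exons 18 and 19 were in the table only through the line where they were highest, so their differences are a description. Some windows above had a mean of 1 FPKM or less within a pair and were not tested there. Among them were the start windows of HLA-B, CIITA and CD74 in the A2780 pair and of CIITA in the PEA pair. Groups of 3 libraries were too small to look for a library standing apart.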

How the results depend on the processing

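In the A2780 pair the 8 higher windows became 4 with an upper limit on depth and 1 each with median centring, the 5 Mb median removed, a GC trend removed, edgeR on recovered reads or centring on start windows, and the 0 lower windows became 1 with the 5 Mb median removed. The 1 PEA and 3 PEO windows at the study's thresholds became 0 and 0 with a pseudocount of 1 or the 5 Mb median removed, and 0 and 1 with the GC trend removed. In the PEA pair the 4 higher windows became 7 with the 5 Mb median removed, and the 13 lower ones 20 with the GC trend removed. In the PEO pair 13 higher windows became 5 with the 5 Mb median removed and 11 lower ones 7 with median centring. Windows that differed between the A2780 and PEA pairs numbered 18, and 11 with the 5 Mb median removed or with centring on start windows, and those between the A2780 and PEO pairs 19 and 7 with the 5 Mb median removed. Centring on start windows was chosen after seeing the data. The cause of these shifts was not tested.

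Leaving out 1 library at a time gave 0 to 0 study calls in the A2780 pair, 1 to 1 for PEA and 2 to 4 for PEO. Higher windows ranged from 3 to 9, 3 to 4 and 13 to 14, lower ones from 0 to 0, 9 to 16 and 9 to 11, differing windows from 15 to 19 (A2780 and PEA), 15 to 20 (A2780 and PEO) and 24 to 28 (PEA and PEO), and the tests over 15 line pairs from 320 to 348.

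With the 5 Mb median removed, these log2 fold changes turned sign. In the A2780 pair HLA-E was at -0.29, its exon 3 window at -0.044 and TAP2 at -0.14. In the PEA pair HLA-E was at 0.089, its exon 3 window at 0.17, TAP2 at 0.20, the TAP1 exon 11 window at 0.36, the window shared by TAP1 and TAP2 at 0.45 and NLRC5 at -0.53. In the PEO pair B2M was at 0.83, its intron window at 0.39, TAP1 at -0.42, its exon 11 window at -0.29, TAP2 at -0.71 and the shared window at -0.51. The CD74 intron window 3173 bases after the start was at -0.18, -0.47 and 0.68 in the 3 pairs. It also turned with median centring (-0.35, -0.15 and 0.20), the GC trend removed (-0.28, -0.11 and 0.16) and edgeR (-0.40, -0.16 and 0.19), and in the A2780 pair with centring on start windows (-0.37).

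Other sign changes were HLA-E in the A2780 pair with median centring (-0.14), the GC trend removed (-0.17), edgeR (-0.15) and centring on start windows (-0.15), TAP2 there with the GC trend removed (-0.0074) and centring on start windows (-0.0013), NLRC5 in the PEA pair with median centring (-0.25) and edgeR (-0.28), and CD74 in the PEA pair with centring on start windows (0.23). Without 1 library, NLRC5 in the PEA pair ranged from -0.21 (without PEA1 replicate 3) to 0.33, the CD74 start window there from -0.23 to 0.10, the CD74 intron window there from -0.073 (without PEA1 replicate 3) to 0.44, and the TAP1 exon 11 window in the A2780 pair from -0.12 to 0.080.

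With the replicate number as a block, 7 windows were higher in the A2780 pair, 4 higher and 12 lower for PEA, 13 and 11 for PEO, and 348 tests passed over 15 line pairs. Once the mean of each line was subtracted at every window, same-numbered libraries of a pair correlated at -0.412 to 0.0446. In the PEO pair every PEO1 library then correlated best with the PEO4 library of its own number, a hint from the data and not the design. Depth limits the low windows, which held as few as 3 reads.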
